A study of Mus musculus with 18 samples.

Results

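The 38 genes described here act in mitosis or in the preceding G2 phase, and were taken by symbol from a named list of mitotic genes: 38 of the 32286 entries in the count table, all of them found and all of them expressed highly enough to be tested. Libraries of mRNA were sequenced from the mouse lines AT-3 and E0771, both labelled mammary carcinoma, with 3 libraries in each of 6 groups, 18 libraries in all. Every culture carried a pRetroX vector that was empty, held wild-type MRTFA or held Y238A MRTFA, a form described in the study design as deficient in SRF binding, and every culture, empty vector included, received doxycycline at 2 µg/ml for 48 h. By its title the study is about the stiffness of cancer cells and their calcium and potassium levels, and it states no question about mitotic genes. The labels speak of 3 replicate sets and name no separate cultures or clones, so p-values measure the spread between these libraries, which may be technical.

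Mitotic genes are made in a wave that begins late in the cell cycle and ends when the cell divides. Their promoters are held silent earlier in the cycle by the DREAM complex, which binds the cell cycle genes homology region (CHR), and are switched on by MuvB joined to B-MYB and then FOXM1, often with NF-Y bound at nearby CCAAT boxes. Their proteins switch on mitotic entry, condense the chromosomes, build the spindle, hold anaphase back until every kinetochore is attached, and divide the cell. MRTFA is a coactivator that leaves actin and joins SRF, which binds CArG boxes. Because the RNA was taken from whole cultures, fewer cells in mitosis and less of these RNAs per mitotic cell cannot be told apart.

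The libraries held 81265466 to 115260128 counts, and the lowest count of any of the 38 genes in any library was 1245. The entry named MRTFA, taken as the construct, stood at no more than 0.122 CPM, the counts scaled to a common library size, with empty vector. It reached 3894 to 6339 with the wild-type and 1955 to 2338 with the Y238A construct in AT-3, and 718 to 899 and 299 to 376 in E0771, so the mutation and the lower level of its construct cannot be told apart. Y238A replicate 2 of E0771, and in AT-3 wild-type replicate 1, differed more from the other libraries of their groups than those did from each other. Transcripts specific to AT-3 appeared in E0771 empty vector replicate 2 at 1.40% of their AT-3 level, in wild-type replicate 2 at 0.581% and in Y238A replicate 1 at 0.286%. Of 7 epithelial marker genes only 1 reached 1 CPM in AT-3 with empty vector and 2 did in E0771, and Cldn4 was at 0 in AT-3. The summed levels of marker lists moved with the constructs. Epithelial markers stood at 5.56 to 5.97 CPM in AT-3 with empty vector, 43.9 to 46.7 with wild-type and 66.3 to 78.6 with Y238A MRTFA. In E0771 they stood at 304 to 328, 569 to 680 and 376 to 400. Most of each sum was 1 gene, Krt19 in AT-3 and Krt8 in E0771. Means of Krt19 were 3.88, 33.6 and 69.5 CPM, and those of Krt8 317, 622 and 387. The 7 fibroblast markers, led in AT-3 by Pdgfrb, stood at 502 to 544, 91.7 to 106 and 381 to 426 CPM in AT-3 and at 184 to 206, 132 to 145 and 265 to 297 in E0771. The 7 leukocyte markers, led by Cd68, stood at 3.31 to 4.08, 24.7 to 25.3 and 70.1 to 75.6 CPM in AT-3 and at 3.33 to 4.98, 3.15 to 3.67 and 11.6 to 17.7 in E0771. The part of these marker genes in the mitotic values was not tested.

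RefSeq promoter sequences, 250 bases before to 50 after the start on GRCm38.p6, were matched by symbol for 32 of the 38 genes. For Aurka, Kif2c and Mad2l1 the last 25 bases of the sequence were not found in the first 2000 bases of a GENCODE transcript of the gene. They are shown for 5 members that stand for the range of responses below. These are Bub1b (chr2:118597961-118598260, plus strand), Kif23 (chr9:61946750-61947049, minus strand) and Top2a (chr11:99024140-99024439, minus strand), which fell furthest with wild-type MRTFA in AT-3. Cenpe (chr3:135212313-135212612, plus strand) rose furthest, and Cdca8 (chr4:124936868-124937167, minus strand) fell furthest with Y238A. Capitals mark the CHR letters TTTGAA and the CCAAT box, each on either strand, so that TTCAAA and ATTGG are their reverse complements. In Cdca8 a CHR match and a CCAAT match overlap.
Bub1b: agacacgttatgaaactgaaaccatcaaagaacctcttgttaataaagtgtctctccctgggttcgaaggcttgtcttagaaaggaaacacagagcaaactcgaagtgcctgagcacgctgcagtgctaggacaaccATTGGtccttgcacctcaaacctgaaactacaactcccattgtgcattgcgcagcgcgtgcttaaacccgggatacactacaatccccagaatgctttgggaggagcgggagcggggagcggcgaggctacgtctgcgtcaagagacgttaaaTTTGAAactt
Kif23: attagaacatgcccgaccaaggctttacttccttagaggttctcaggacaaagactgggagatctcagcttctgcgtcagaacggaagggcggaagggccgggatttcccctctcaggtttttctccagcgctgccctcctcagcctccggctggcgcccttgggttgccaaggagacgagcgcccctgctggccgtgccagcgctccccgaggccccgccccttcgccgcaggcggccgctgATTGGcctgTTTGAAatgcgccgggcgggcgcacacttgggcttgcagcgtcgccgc
Top2a: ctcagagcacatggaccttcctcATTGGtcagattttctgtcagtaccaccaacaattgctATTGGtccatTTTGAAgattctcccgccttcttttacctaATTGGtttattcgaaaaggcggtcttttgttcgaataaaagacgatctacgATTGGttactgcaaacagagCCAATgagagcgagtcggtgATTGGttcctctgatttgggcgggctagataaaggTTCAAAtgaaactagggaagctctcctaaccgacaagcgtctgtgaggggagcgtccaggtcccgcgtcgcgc
Cenpe: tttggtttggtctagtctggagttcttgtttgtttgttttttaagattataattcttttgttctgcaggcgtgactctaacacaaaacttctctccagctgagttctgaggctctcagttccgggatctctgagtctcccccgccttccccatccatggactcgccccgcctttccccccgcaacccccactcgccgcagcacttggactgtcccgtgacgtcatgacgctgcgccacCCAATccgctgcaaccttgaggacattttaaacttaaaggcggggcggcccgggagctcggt
Cdca8: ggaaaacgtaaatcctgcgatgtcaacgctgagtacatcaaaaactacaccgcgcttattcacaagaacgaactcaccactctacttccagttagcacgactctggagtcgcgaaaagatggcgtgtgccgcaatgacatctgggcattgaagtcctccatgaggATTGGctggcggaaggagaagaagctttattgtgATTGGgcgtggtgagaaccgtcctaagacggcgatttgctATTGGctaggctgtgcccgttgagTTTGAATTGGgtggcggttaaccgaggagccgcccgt

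TTTGAA occurred on either strand in 25 of the 32 members with a promoter sequence (78.1%), against 20.2% of the 27025 genes in the table. A CCAAT match occurred in 23 of 32 (71.9%), against 41.1%, and both motifs together in 21 of 32 (65.6%), against 7.97%. Within 50 bases of the start, 21 of 32 members (65.6%) held TTTGAA, against 5.72% of all genes. Without Aurka, Kif2c and Mad2l1, 23 of 29 held TTTGAA (79.3%), 22 CCAAT, 20 both and 20 TTTGAA within 50 bases of the start. The CArG box, searched by its consensus on both strands, occurred only in Kif20b among the 32 (3.12%), against 1.81% of all genes. The Cenpe window printed above has a CCAAT match and no TTTGAA, and the Kif23 window has both close to the start. In AT-3 with wild-type MRTFA the 25 members with TTTGAA had a median log2 fold change of -0.78 and the 7 without it, namely Birc5, Bub1, Cenpe, Mad2l1, Nuf2, Nusap1 and Tacc3, one of -0.37, with the 2 ranges overlapping (-1.50 to 0.34 and -1.13 to 0.73). The order was the other way with Y238A in AT-3, -0.25 with the letters and -0.32 without. In E0771 the medians were -0.18 and -0.16 with wild type and -0.16 and -0.12 with Y238A. These matches are a description of letters in a window and were not tested as binding sites.

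With wild-type MRTFA in AT-3, 31 of the 38 genes fell and 5 rose against empty vector at an adjusted p below 0.05, where 32.2% of all 17841 genes tested fell and 36.4% rose, 68.6% in all. The median log2 fold change of the 38 was -0.71, beside 0.07 over all genes tested. The falls reached 1.50 ± 0.07 (SE) for Kif23, 1.50 ± 0.09 for Bub1b, 1.22 ± 0.06 for Top2a and 1.19 ± 0.07 for Ncapd2 on the log2 scale, and 7 genes fell by at least 1. Cenpe rose by 0.73 ± 0.06 and Kif2c by 0.34 ± 0.06, while Kif4 and Ube2c did not pass the threshold. Summed over the 38 genes, the level was 6458 ± 167 CPM (SD, n = 3) with empty vector and 4561 ± 180 with the wild-type construct, 70.6% of it. CPM of the members are scaled by TMM, which corrects library sizes for the makeup of each library, and log2 fold changes come from edgeR.

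Scaling by library totals in place of TMM lowered the median of all genes in this comparison by 0.14, from 0.07 to -0.07. It left 2 of the 5 rises past the threshold, as did leaving out wild-type replicate 2 or wild-type replicate 3. Those of Cenpe and Kif2c held in all 15 alternatives tried, and 28 of the 31 falls did. Without the 2 libraries that stood apart 5 rose and 30 fell. Over all genes the balance of calls turned, from 5743 lower and 6497 higher to 6910 and 5668 with library totals. With a stricter filter on low counts it turned to 5579 and 4533 of 13008 genes, 77.7% in all, with a median of -0.09. Shares of all genes given below for this comparison are those of the main fit.

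With Y238A MRTFA in AT-3, 22 of the 38 genes fell and 1, Cenpf, rose, where 22.2% of all genes tested fell and 21.4% rose, 43.7% in all. With library totals 3768 of all genes were lower and 4030 higher, beside 3963 and 3825 as reported. With the stricter filter 3991 were lower and 3627 higher, 58.6% of the 13008 tested. The median of the 38 was -0.26, beside 0.01 over all genes tested. The lowest were Cdca8 (-0.87 ± 0.05), Bub1b (-0.68 ± 0.09), Birc5 (-0.58 ± 0.06) and Kif2c (-0.54 ± 0.06). The summed level was 5522 ± 174 CPM (SD, n = 3), 85.5% of that with empty vector. Both constructs are compared with the same 3 empty vector libraries, so their values are given side by side and their agreement is not counted.

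Directly compared in AT-3, the wild-type construct gave lower values than Y238A in 24 of the 38 genes and higher values in 4, where 31.4% of all genes tested were lower and 34.8% higher, 66.2% in all (7075 lower and 5174 higher with library totals, 5599 and 6206 with TMM). The stricter filter gave 5437 lower and 4504 higher over all genes, 76.4% of the 13008 tested. The median difference was -0.41, beside 0.05 over all genes, a value that library totals lowered by 0.16. Cenpf (-1.23 ± 0.06), Ncapd2 (-1.19 ± 0.07), Kif23 (-1.04 ± 0.07) and Prc1 (-1.02 ± 0.07) were furthest below. Cenpe (1.17 ± 0.06), Cdca8 (0.99 ± 0.05) and Kif2c (0.87 ± 0.06) were above, as was Ndc80 (0.25 ± 0.06). The call of Ndc80 was lost with library totals and without wild-type replicate 2 or 3. The count of higher genes was 9 by DESeq2.

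In E0771 with wild-type MRTFA, 17 of the 38 genes fell and 1, Cenpe, rose, where 13.3% of all genes tested fell and 11.2% rose, 24.5% in all. Over all genes the balance of these calls turned, from 2364 lower and 2000 higher to 1385 and 2154 with a stricter filter on low counts, to 1417 and 1952 with E0771 fitted alone and to 1100 and 1662 without 4 libraries. Those 4 were AT-3 Y238A replicate 1 and, in E0771, empty vector replicate 2, wild-type replicate 2 and Y238A replicate 1. The E0771 libraries among them held most transcripts specific to AT-3. AT-3 libraries were not scored for transcripts of other groups. The median of the 38 was -0.16, beside -0.05 over all genes tested, and the largest fall was that of Nusap1 (-0.55 ± 0.08). The count of falls moved with single libraries, to 8 when wild-type replicate 1 was left out, 10 when empty vector replicate 2 was and 11 when wild-type replicate 3 was. Without the 2 libraries that stood apart 24 fell and 3 rose. With the stricter filter 10 fell, and the falls of Birc5, Cdk1, Cenpa, Hmmr, Kif23, Mki67 and Smc4 were lost. With E0771 fitted alone 9 fell, those of Cdk1, Cenpa, Hmmr, Kif20a, Kif23, Mad2l1, Mki67 and Smc4 being lost. Without the 4 libraries 8 fell, and those of Birc5, Cdc20, Cdk1, Cenpa, Hmmr, Kif20a, Kif23, Mad2l1 and Smc4 were lost, as was the rise of Cenpe. In this comparison libraries with the same replicate number deviated together, but so did some with different numbers. Deviations of empty vector replicate 1 and wild-type replicate 3, for example, correlated at 0.132. With the number as a block 15 fell and 2 rose. The falls of Birc5 (adjusted p = 0.0713), Hmmr (0.0653) and Smc4 (0.0647) were lost with the block, and Kif20b (-0.19 ± 0.06, adjusted p = 0.041) and Cdc25c (0.21 ± 0.07, adjusted p = 0.0451) passed. The 6 falls that passed in all 15 alternatives were those of Nusap1, Ncapd2, Top2a, Aurkb, Prc1 and Cenpf. Summed levels were 6287 ± 207 CPM with empty vector and 5659 ± 222 with the wild-type construct (SD, n = 3), 90.0% of it.

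With Y238A in E0771, 11 of the 38 genes fell, where 6.64% of all genes tested fell and 5.41% rose, 12% in all (817 lower and 1176 higher with library totals, 889 and 1285 with the stricter filter, 333 and 510 without the 4 libraries, 1184 and 965 as reported). None of the 38 rose: the count of higher members was 0 by edgeR, 0 at an unadjusted p below 0.05 and 0 by DESeq2, and the 38 estimates were all below 0. Ndc80 (-0.39 ± 0.06), Dlgap5 (-0.29 ± 0.07) and Kif2c (-0.29 ± 0.06) were lowest, and the median was -0.16, beside -0.01 over all genes tested. Y238A replicate 2 was the lowest library of its group for 38 of the 38 genes, with a summed level of 5126 CPM beside 5839.9 and 5998 in the other 2. In those, Ncapd2 stood at 103.0 and 101.3% of its empty vector mean, Aurkb at 101.0 and 100.2% and Cdc25c at 109.1 and 101.4%. The sign shared by all 38 estimates therefore depends on replicate 2. The count of falls was 6 without it, 8 without both libraries that stood apart, 22 without Y238A replicate 3, 5 without empty vector replicate 2 and 7 without empty vector replicate 3. Without the 4 libraries it was 5, the falls of Anln, Cenpe, Ckap2, Kif20a, Kif4 and Ttk being lost. With E0771 fitted alone those of Anln, Kif20a, Kif4 and Ttk were lost, and with library totals those of Anln, Ckap2 and Kif4. Ndc80, Dlgap5, Kif2c, Cdc20 and Cdca8 passed in all 15 alternatives.

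The contrast of wild-type with Y238A MRTFA in E0771 gave 8 higher and 5 lower of the 38, where 12.7% of all genes tested were higher and 13% lower, 25.7% in all (1972 higher and 3247 lower with library totals, 2268 and 2326 with TMM). Cenpe (0.42 ± 0.06), Ndc80 (0.33 ± 0.06), Anln (0.29 ± 0.05) and Cdca8 (0.25 ± 0.05) were higher in all 15 alternatives, and Nusap1 (-0.42 ± 0.08) and Aurkb (-0.27 ± 0.05) lower in all 15. Without wild-type replicate 2 or Y238A replicate 2 the higher count was 5, and without wild-type replicate 1 or Y238A replicate 3 the lower count was 3.

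**Figure D1:**
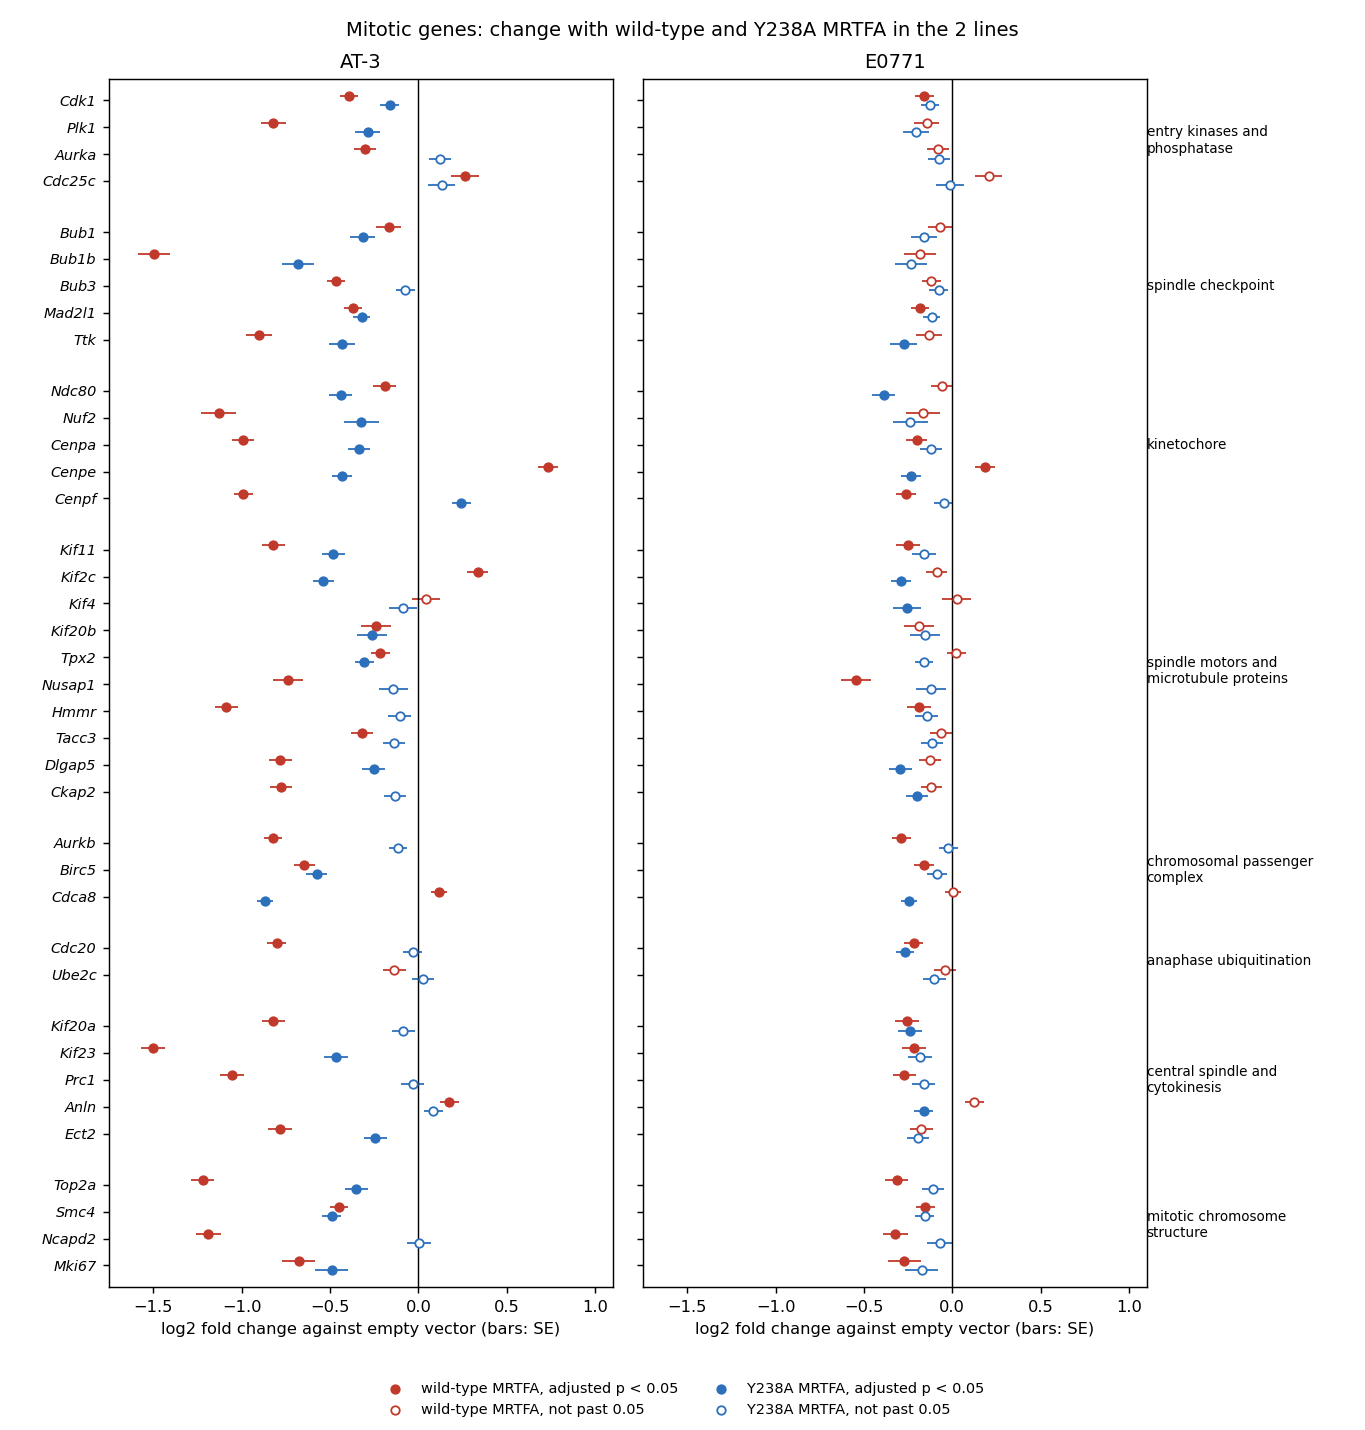
Log2 fold change against empty vector (horizontal axis; bars, SE from edgeR; n = 3 libraries per group) for each of the 38 genes (rows, grouped by role), with AT-3 on the left and E0771 on the right. Red points are wild-type and blue points Y238A MRTFA, filled at an adjusted p below 0.05; in AT-3 red points reach -1.50 and Cenpe stands at 0.73, and in E0771 the points lie between -0.55 and 0.21.

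The lines share no library, so the same contrast can be set side by side across them. All 17 genes lower with wild-type MRTFA in E0771 were also lower in AT-3, which is 100% of the E0771 list and 54.8% of the 31 in AT-3. Since 31 of the 38 were lower in AT-3, most of any 17 members would be shared. Over all genes tested, 73.5% of those lower in E0771 were lower in AT-3, and 30.2% of those lower in AT-3 were lower in E0771. With Y238A, 6 genes were lower in both lines (Cdca8, Cenpe, Dlgap5, Kif2c, Ndc80 and Ttk), 27.3% of the 22 in AT-3 and 54.5% of the 11 in E0771, beside 19.2% and 64.1% over all genes. For the wild-type against the Y238A construct, the 4 genes higher in AT-3 (Cdca8, Cenpe, Kif2c and Ndc80) were 100% of that list and 50% of the 8 higher in E0771, beside 28.9% and 79.1% over all genes. The 5 lower in E0771 (Aurkb, Cenpf, Ncapd2, Nusap1 and Top2a) were 100% of that list and 20.8% of the 24 in AT-3, beside 71.5% and 29.7% over all genes. These shares are descriptions with no test.

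The kinases and the phosphatase of mitotic entry include Cdk1, which drives entry, Plk1 and Aurora A (Aurka), which mature the centrosomes, and Cdc25c, the phosphatase that activates Cdk1. In AT-3 Plk1 stood at 224, 215 and 222 CPM with empty vector, 111, 129 and 134 with wild-type and 189, 181 and 171 with Y238A MRTFA, so that the 3 groups did not overlap. It fell by 0.82 ± 0.07 (adjusted p = 3.9e-09) with the wild-type construct, or 43.4%, and by 0.29 ± 0.07 with Y238A. Plk1 in E0771 held 198, 216 and 211 CPM with empty vector, 188, 192 and 186 with wild-type and 186, 158 and 198 with Y238A MRTFA, and passed in neither comparison (adjusted p = 0.156 and 0.067). Cdk1 fell by 0.39 ± 0.05 with wild-type MRTFA in AT-3 and by 0.16 ± 0.05 in E0771, the latter lost without wild-type replicate 1, wild-type replicate 3 or empty vector replicate 2. Aurka fell by 0.30 ± 0.06 in AT-3 with the wild-type construct and was at 0.12 ± 0.06 with Y238A (adjusted p = 0.123).

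Cdc25c went the other way from the kinases in AT-3. It stood at 37.9, 36.1 and 34.3 CPM with empty vector, 43.9, 45.0 and 41.2 with wild-type and 40.8, 40.8 and 37.1 with Y238A MRTFA, with the wild-type libraries above both other groups. The rise of 0.26 ± 0.08 (adjusted p = 0.00483) was lost with library totals (0.11) and without wild-type replicate 2 or 3. In E0771 it held 30.7, 32.0 and 28.5 CPM with empty vector, 36.4, 36.5 and 32.4 with wild-type and 33.2, 26.3 and 30.8 with Y238A MRTFA, and its value of 0.21 ± 0.08 for wild type missed the threshold (adjusted p = 0.057) and passed in 7 of 15 alternatives, among them without wild-type replicate 3.

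All 5 spindle checkpoint genes fell in AT-3 with the wild-type construct, where 32.2% of all genes tested fell. The checkpoint kinase Ttk recruits Bub1 and Bub3 to unattached kinetochores, where Mad2 (Mad2l1) and BubR1 (Bub1b) are assembled into the inhibitor of Cdc20. Bub1b stood at 196, 196 and 205 CPM with empty vector, 60.9, 74.5 and 76.3 with wild-type and 126, 124 and 122 with Y238A MRTFA in AT-3, 3 groups without overlap. Its fall with the wild-type construct was 1.50 ± 0.09 (adjusted p = 1.27e-10), or 64.6%, and with Y238A it was 0.68 ± 0.09. In E0771 Bub1b held 128, 137 and 137 CPM with empty vector, 111, 124 and 119.8 with wild-type and 117, 95.4 and 129.9 with Y238A MRTFA; the wild-type libraries lay below those with empty vector, yet the estimate of -0.18 ± 0.09 did not pass (adjusted p = 0.168).

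Ttk fell by 0.90 ± 0.08 with wild-type and by 0.43 ± 0.07 with Y238A MRTFA in AT-3, from 37.9 ± 0.574 CPM (SD, n = 3) to 20.3 ± 1.21 and 28.1 ± 1.76. Mad2l1 fell by 0.37 ± 0.05 and 0.32 ± 0.05, and the difference between the constructs did not pass (-0.05 ± 0.05, 95% interval -0.15 to 0.05), though it did with library totals and without wild-type replicate 2 or 3. Bub3 fell by 0.47 ± 0.05 with the wild-type construct and was at -0.07 ± 0.05 with Y238A (adjusted p = 0.285). Bub1 had the weakest fall of the 5 (-0.17 ± 0.07, adjusted p = 0.0427), which was lost with DESeq2, with its size factors and without AT-3 wild-type replicate 1 or any 1 of the empty vector libraries, whereas with Y238A its fall of 0.32 ± 0.07 held in all 15 alternatives. Among the 5 in E0771, Mad2l1 fell with the wild-type construct (-0.18 ± 0.05, lost without wild-type replicate 1) and Ttk with Y238A (-0.28 ± 0.08, lost without empty vector replicate 2 or Y238A replicate 2).

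Of the 5 kinetochore genes, 4 fell and Cenpe rose in AT-3 with the wild-type construct, where 32.2% of all genes tested fell and 36.4% rose. With Y238A there 4 fell and Cenpf rose, beside 22.2% and 21.4% of all genes tested. Cenpe encodes a kinesin that carries chromosomes to the spindle equator, Cenpf a large protein of the outer kinetochore, Cenpa the histone variant that marks centromeres, and Ndc80 and Nuf2 the complex that grips microtubules. Cenpe was the member that rose furthest: AT-3 libraries held 168, 162 and 162 CPM with empty vector, 287, 270.3 and 261 with wild-type and 121, 125 and 118 with Y238A MRTFA. The 3 groups did not overlap, with wild type highest and Y238A lowest. With wild type it rose by 0.73 ± 0.06 (adjusted p = 4.07e-10), or 66.3%, and with Y238A it fell by 0.43 ± 0.06 (adjusted p = 2.54e-06).

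The order of the groups for Cenpe was the same in E0771, where the libraries held 144, 157 and 152 CPM with empty vector, 165, 178 and 172 with wild-type and 133, 115 and 137 with Y238A MRTFA, again without overlap. The rise was 0.19 ± 0.06 (adjusted p = 0.0202) and was lost without E0771 empty vector replicate 1 or wild-type replicate 2, and the fall with Y238A was 0.24 ± 0.06 (adjusted p = 0.009), lost without empty vector replicate 2. The direct contrast of the constructs, 0.42 ± 0.06 (adjusted p = 7.63e-06), passed in all 15 alternatives.

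Cenpf had the reverse order in AT-3, with 157, 157 and 145 CPM with empty vector, 79.8, 72.8 and 78.5 with wild-type and 181, 182 and 180.1 with Y238A MRTFA. It fell by 0.99 ± 0.06 with wild type (adjusted p = 2.83e-12) and rose by 0.24 ± 0.05 with Y238A (adjusted p = 0.00106), the groups not overlapping. E0771 libraries held 237.9, 252 and 239.9 CPM with empty vector, 185, 217 and 207 with wild-type and 237, 223 and 245 with Y238A MRTFA, so there too the wild-type libraries were lowest (fall of 0.26 ± 0.05), while Y238A overlapped empty vector.

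Ndc80 in AT-3 stood at 68.8, 63.9 and 65.0 CPM with empty vector, 59.0, 57.2 and 57.1 with wild-type and 50.7, 49.7 and 45.4 with Y238A MRTFA, lowest with Y238A (-0.44 ± 0.06), and its smaller fall with wild type (-0.19 ± 0.06, adjusted p = 0.0134) was lost without empty vector replicate 1. Its E0771 levels were 71.0, 77.8 and 70.1 CPM with empty vector, 66.7, 72.6 and 71.0 with wild-type and 58.0, 49.6 and 59.7 with Y238A MRTFA, so only the Y238A libraries lay apart. That fall of 0.39 ± 0.06 (adjusted p = 0.000439) was the largest of the 38 with Y238A in this line. Nuf2, the partner of Ndc80, instead fell further with wild-type (-1.13 ± 0.10) than with Y238A MRTFA (-0.32 ± 0.10) in AT-3, the latter lost without Y238A replicate 3. Cenpa fell by 0.99 ± 0.06 with wild type and by 0.33 ± 0.06 with Y238A in AT-3. Its E0771 fall with wild type (-0.20 ± 0.06) was lost without empty vector replicate 1 or 2 or wild-type replicate 1 or 3.

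**Figure D2:**
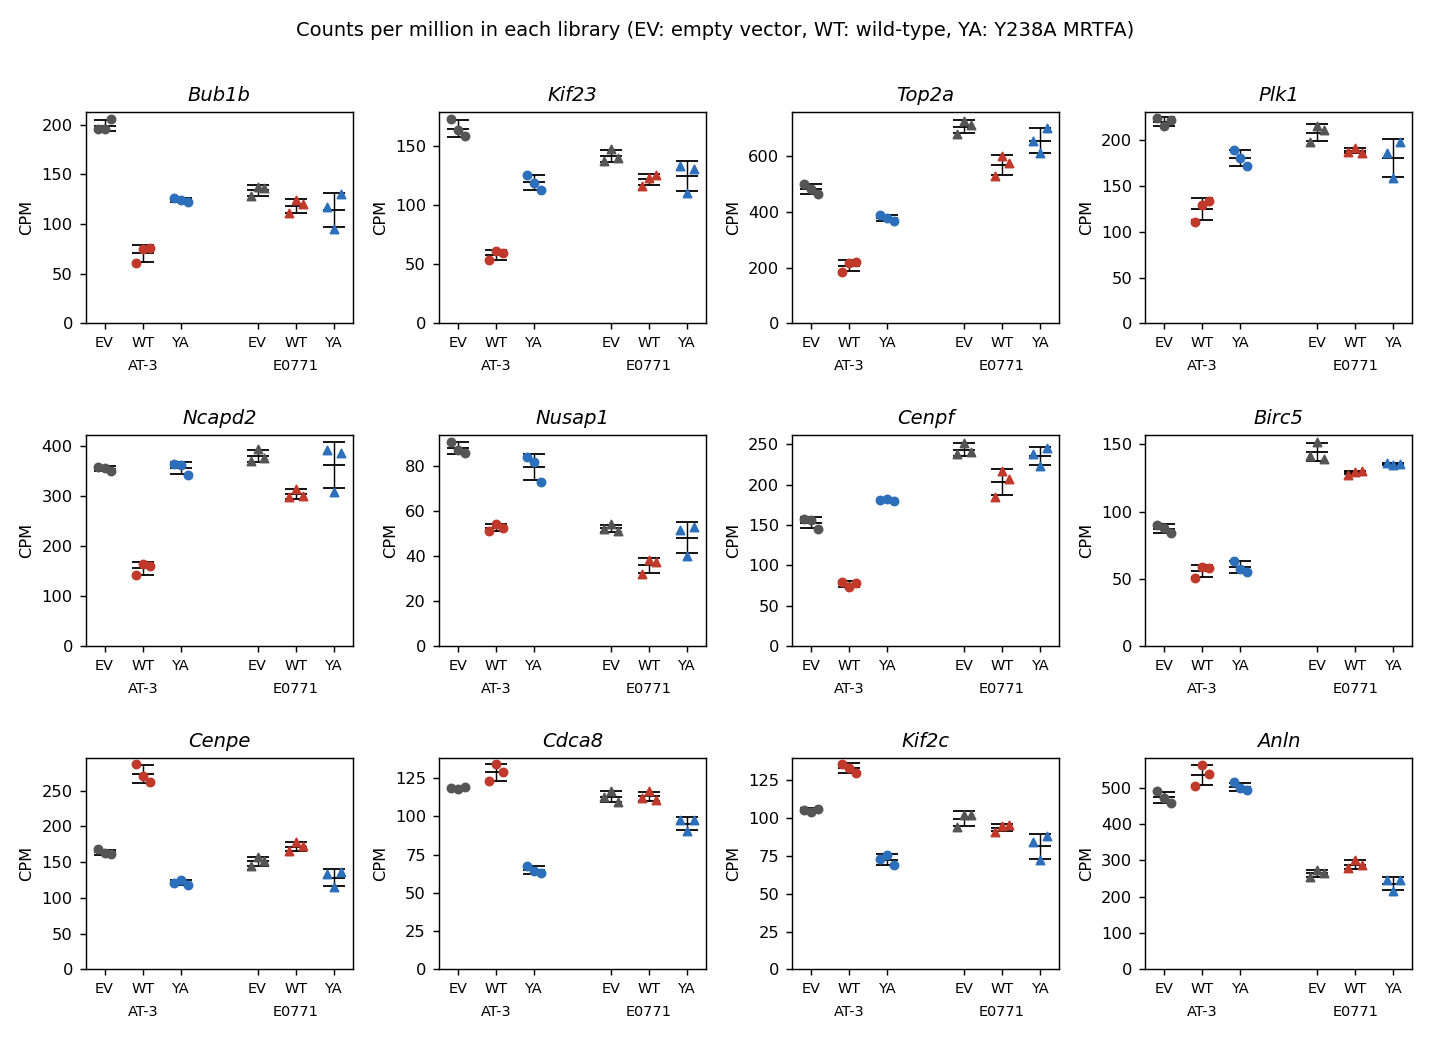
CPM of 12 members in each library (vertical axes, from 0), AT-3 as circles and E0771 as triangles, grey for empty vector (EV), red for wild-type (WT) and blue for Y238A MRTFA (YA), left to right by replicate number, with the mean and SD (n = 3) as black bars. Bub1b, Kif23, Top2a and Ncapd2 are lowest with wild type in AT-3; Cenpe and Kif2c are highest there, and Cdca8 is lowest with Y238A.

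Among the 10 spindle motors and microtubule proteins, 8 fell and 1 rose in AT-3 with the wild-type construct. Of all genes tested, 32.2% fell and 36.4% rose in that comparison. The riser was Kif2c, a kinesin that takes microtubule ends apart, at 106, 104 and 106 CPM with empty vector, 136, 133 and 129 with wild-type and 72.7, 75.8 and 68.8 with Y238A MRTFA. It rose by 0.34 ± 0.06 (adjusted p = 4.13e-05) with wild type and fell by 0.54 ± 0.06 (adjusted p = 2.65e-07) with Y238A, with no overlap between groups. E0771 libraries held 93.9, 102 and 102 CPM with empty vector, 90.8, 94.8 and 95.5 with wild-type and 84.2, 72.1 and 87.9 with Y238A MRTFA: empty vector and wild type overlapped and Y238A lay below both (-0.29 ± 0.06).

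Tpx2, which activates Aurora A on the spindle, stood at 332, 306 and 315 CPM with empty vector, 257, 282 and 280.3 with wild-type and 268, 254 and 247 with Y238A MRTFA in AT-3, where both constructs lay below empty vector and overlapped each other. Its falls were 0.22 ± 0.05 and 0.31 ± 0.05. In E0771 it held 347, 368 and 354 CPM with empty vector, 349, 372 and 365 with wild-type and 331, 292 and 334 with Y238A MRTFA, with Y238A below both other groups, and neither estimate passed (adjusted p = 0.823 and 0.0567). Nusap1, which bundles spindle microtubules, stood at 90.8, 87.3 and 85.6 CPM with empty vector, 51.3, 54.2 and 52.5 with wild-type and 84.1, 81.9 and 73.0 with Y238A MRTFA in AT-3 and fell by 0.74 ± 0.08 with wild type (adjusted p = 1.68e-07). It was the member that fell furthest with wild type in E0771, with 52.0, 54.2 and 51.2 CPM with empty vector, 32.1, 38.4 and 37.4 with wild-type and 51.5, 40.2 and 53.0 with Y238A MRTFA, a fall of 0.55 ± 0.08 (adjusted p = 6.27e-05). The wild-type libraries lay below both other groups.

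Dlgap5, which stabilises the fibres that link kinetochores to the spindle, stood at 70.9, 71.3 and 69.2 CPM with empty vector, 36.6, 42.1 and 44.4 with wild-type and 60.0, 58.6 and 58.9 with Y238A MRTFA in AT-3, 3 groups without overlap. In E0771 it held 129.8, 132 and 131 CPM with empty vector, 118, 123 and 118 with wild-type and 114, 93.7 and 112 with Y238A MRTFA. It fell by 0.78 ± 0.07 and 0.25 ± 0.07 with the 2 constructs in AT-3, and by 0.29 ± 0.07 with Y238A in E0771. Its value of -0.13 ± 0.07 with wild type in E0771 did not pass (adjusted p = 0.176), although those libraries lay below the empty vector ones.

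Hmmr fell by 1.09 ± 0.07 with wild type in AT-3 and was at -0.11 ± 0.07 with Y238A (adjusted p = 0.213). Kif11, the motor that pushes spindle poles apart, fell with both constructs (-0.82 ± 0.07 and -0.48 ± 0.07). Ckap2 (-0.78 ± 0.06) and Tacc3 (-0.32 ± 0.06) fell with wild type and missed the threshold with Y238A (adjusted p = 0.0835 and 0.0854). With Y238A each passed with DESeq2, with its size factors and with the stricter filter. Tacc3 shares 8.14% of its exon bases with Tmem129 on the opposite strand. Tmem129 stood at 32.5 CPM with empty vector, 36.9 with wild-type and 48.3 with Y238A MRTFA in AT-3, and its part in the Tacc3 values was not tested. Kif20b fell by 0.24 ± 0.09 and 0.26 ± 0.09, of which the first was lost when wild-type replicate 1 or empty vector replicate 3 was left out, and the second when Y238A replicate 1 or empty vector replicate 2 or 3 was. The chromokinesin Kif4 was at 0.04 ± 0.08 with wild type (95% interval -0.13 to 0.21), at 113 CPM with empty vector and 116 with the construct. 15.1% of the Kif4 exon bases are shared with Pdzd11 on the opposite strand, which went from 35.4 to 64.8 CPM, and since no strand setting is given its part in the Kif4 value was not tested. In E0771 Kif11 (-0.25 ± 0.07, lost without wild-type replicate 1) and Hmmr (-0.19 ± 0.07, lost in 5 of the 6 fits that left out a library) fell with wild type, and Kif4 (-0.25 ± 0.08) and Ckap2 (-0.20 ± 0.06) fell with Y238A, both lost without Y238A replicate 2 or empty vector replicate 2 or 3.

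The chromosomal passenger complex corrects faulty attachments and signals cytokinesis. Its kinase Aurora B (Aurkb), survivin (Birc5) and borealin (Cdca8) did not move together. Cdca8 in AT-3 stood at 119, 118 and 119 CPM with empty vector, 123, 134 and 129 with wild-type and 67.6, 64.0 and 63.3 with Y238A MRTFA, without overlap. The fall with Y238A was 0.87 ± 0.05 (adjusted p = 5.77e-12), or 45.2%, the largest of the 38 with that construct. With wild type it was at 0.12 ± 0.05 (adjusted p = 0.0277), a rise that turned to -0.04 with library totals and to -0.04 and -0.01 without wild-type replicate 2 or 3. The call was also lost with no filter and without empty vector replicate 1 or 2. 4.48% of its exon bases are shared with 9930104L06Rik on the opposite strand, which stood at 11.8 CPM with empty vector, 60.3 with wild-type and 13.5 with Y238A MRTFA; its part in the Cdca8 value was not tested.

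E0771 libraries held 112, 117 and 109.6 CPM of Cdca8 with empty vector, 112, 116 and 111 with wild-type and 97.8, 90.5 and 97.6 with Y238A MRTFA. Only the Y238A libraries lay apart (-0.24 ± 0.05, adjusted p = 0.00126). Birc5 stood at 90.3, 88.2 and 84.2 CPM with empty vector, 50.9, 59.0 and 58.0 with wild-type and 63.7, 57.4 and 55.2 with Y238A MRTFA in AT-3, where both construct groups lay below empty vector and overlapped each other (-0.65 ± 0.06 and -0.58 ± 0.06, the difference between them -0.07 ± 0.06, 95% interval -0.19 to 0.05, past the threshold with library totals and without wild-type replicate 2 or 3). In E0771 Birc5 held 142, 152 and 139 CPM with empty vector, 128, 129.7 and 130.2 with wild-type and 136, 135 and 135 with Y238A MRTFA, and its fall with wild type (-0.16 ± 0.06, adjusted p = 0.0486) was lost in 5 of the 6 fits that left out a library of the 2 groups. Aurkb fell with wild type in AT-3 (-0.82 ± 0.05) and in E0771 (-0.29 ± 0.05) and missed the threshold with Y238A in both (adjusted p = 0.0778 and 0.864), though in AT-3 it passed in 5 of 15 alternatives.

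Cdc20 activates the anaphase-promoting complex, and Ube2c is the ubiquitin-conjugating enzyme that works with it. Per kilobase of exon these 2 and Plk1 had the highest levels of the 38 in both lines with empty vector: 100.1 CPM per kilobase for Plk1, 90.3 for Cdc20 and 88.9 for Ube2c in AT-3, and 94.8, 126 and 90.0 in E0771. The length is that of all annotated exons of a gene together, not of 1 transcript, so this order depends on the annotation. Cdc20 fell by 0.80 ± 0.05 (adjusted p = 4.91e-11) with wild type in AT-3, from 169 ± 5.10 to 96.8 ± 5.49 CPM (SD, n = 3), and was at -0.03 ± 0.05 with Y238A. Ube2c instead stood at 240.0, 227 and 227 CPM with empty vector, 187, 226 and 219 with wild-type and 249.8, 233 and 222 with Y238A MRTFA. Its wild-type libraries lay just below those with empty vector, and the estimate of -0.14 ± 0.06 (adjusted p = 0.0629) passed with library totals (-0.29), with no filter, with the stricter filter and without wild-type replicate 2 or 3. In E0771 Ube2c held 229, 241 and 232 CPM with empty vector, 232, 229.6 and 221 with wild-type and 227, 200.1 and 228 with Y238A MRTFA, and neither estimate passed. Cdc20 fell in E0771 with both constructs (-0.22 ± 0.05 and -0.27 ± 0.05). The first fall was lost without the 4 libraries named above, and the second passed in all 15 alternatives.

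Of the 5 genes of the central spindle and cytokinesis, 4 fell and Anln rose in AT-3 with the wild-type construct. There 32.2% of all genes tested fell and 36.4% rose. Kif23 encodes the motor of centralspindlin, which bundles the midzone and recruits Ect2, the activator of the contractile ring; Prc1 and Kif20a build the midzone, and anillin (Anln) scaffolds the ring. AT-3 libraries held 173, 164 and 159 CPM with empty vector, 53.4, 61.7 and 59.5 with wild-type and 126, 119 and 113 with Y238A MRTFA of Kif23. The 3 groups did not overlap, and Kif23 fell by 1.50 ± 0.07 (adjusted p = 1.01e-13), or 64.7%, with wild type and by 0.47 ± 0.07 with Y238A. Kif23 in E0771 held 137, 147 and 140.2 CPM with empty vector, 117, 123 and 126 with wild-type and 133, 110.3 and 131 with Y238A MRTFA. Both construct groups lay below empty vector, and the fall with wild type (-0.22 ± 0.07, adjusted p = 0.0214) was lost without wild-type replicate 1 or empty vector replicate 2.

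Prc1 fell by 1.05 ± 0.07 and Kif20a by 0.82 ± 0.07 with wild type in AT-3, and neither passed with Y238A (-0.03 ± 0.07 and -0.09 ± 0.07). Both share exon bases with a gene on the opposite strand, 11.1% of Prc1 with Rccd1 and 29.3% of Kif20a with Cdc23. Rccd1 went from 5.36 to 21.9 CPM and Cdc23 from 66.3 to 53.2, and their part in these values was not tested. Ect2 fell with both constructs (-0.78 ± 0.07 and -0.25 ± 0.07). In E0771 Prc1 (-0.27 ± 0.07) and Kif20a (-0.26 ± 0.07) fell with wild type, and Kif20a fell with Y238A (-0.24 ± 0.07). Both Kif20a falls were lost with E0771 fitted alone and without the 4 libraries, and the second also without Y238A replicate 2 or empty vector replicate 2 or 3.

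Anln stood at 490.3, 471 and 459 CPM with empty vector, 505, 562 and 537 with wild-type and 515, 499 and 493 with Y238A MRTFA in AT-3, the empty vector libraries below both construct groups. Its rise with wild type, 0.18 ± 0.05 (adjusted p = 0.00576), was lost with library totals (0.02) and without wild-type replicate 2 or 3, and with Y238A it was at 0.09 ± 0.05. In E0771 it held 255, 274 and 264 CPM with empty vector, 278, 301 and 286 with wild-type and 246, 216 and 246 with Y238A MRTFA, 3 groups without overlap. There the estimate for wild type was 0.12 ± 0.05 (adjusted p = 0.0933) and the fall with Y238A 0.16 ± 0.05 (adjusted p = 0.0492, lost without Y238A replicate 2 and without empty vector replicate 2 or 3).

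All 4 genes of mitotic chromosome structure fell with wild-type MRTFA in both lines, where 32.2% of all genes tested fell in AT-3 and 13.3% in E0771. Top2a encodes the topoisomerase that untangles sister DNA, Smc4 and Ncapd2 subunits of condensin, and Mki67 the protein Ki-67 that coats mitotic chromosomes. Top2a stood at 502, 482 and 463 CPM with empty vector, 185, 216 and 219.8 with wild-type and 391, 377 and 367 with Y238A MRTFA in AT-3, without overlap. It fell by 1.22 ± 0.06 (adjusted p = 8.87e-13), or 57.1%, with wild type and by 0.35 ± 0.06 with Y238A. E0771 libraries held 681, 728 and 712 CPM with empty vector, 530.3, 599.9 and 575 with wild-type and 656, 611 and 700.3 with Y238A MRTFA. There the wild-type libraries lay below both other groups (-0.31 ± 0.06, adjusted p = 0.000828).

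Ncapd2 in AT-3 stood at 358, 357 and 351 CPM with empty vector, 142, 164 and 161 with wild-type and 364, 363 and 342 with Y238A MRTFA: wild type lay far below, and empty vector and Y238A overlapped. The fall with wild type was 1.19 ± 0.07 (adjusted p = 8.78e-12), or 56.2%, and the estimate with Y238A 0.00 ± 0.07 (95% interval -0.14 to 0.15). The E0771 libraries held 370.5, 395 and 377 CPM with empty vector, 298, 315 and 300.5 with wild-type and 392.3, 309 and 386 with Y238A MRTFA. The low Y238A value is that of replicate 2, and the fall with wild type was 0.32 ± 0.07 (adjusted p = 0.00172). Smc4, of the same complex, fell with wild-type (-0.45 ± 0.05) and Y238A MRTFA (-0.49 ± 0.05) in AT-3. Their difference was 0.04 ± 0.05, 95% interval -0.07 to 0.15, and turned to -0.13 with library totals. Mki67 fell by 0.68 ± 0.09 and 0.49 ± 0.09 in AT-3 and by 0.27 ± 0.09 with wild type in E0771, the last lost without wild-type replicate 1 or 3 or empty vector replicate 2 or 3. The E0771 fall of Smc4 with wild type (-0.15 ± 0.05, adjusted p = 0.0403) was lost without the same 4 libraries.

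**Figure D3:**
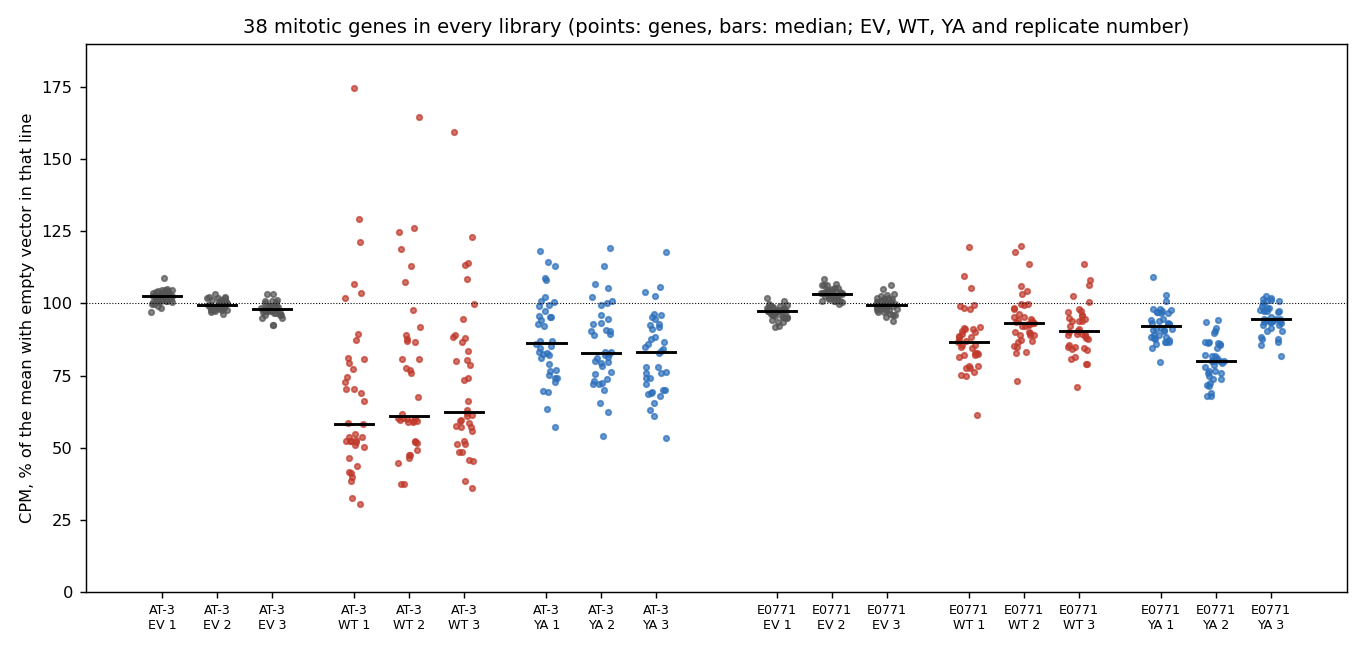
CPM of the 38 genes in each of the 18 libraries as a percentage of the gene's mean with empty vector in that line (vertical axis; points, genes; bars, median), grey for empty vector, red for wild-type and blue for Y238A MRTFA. The medians of the AT-3 wild-type libraries are 58.2, 60.9 and 62.5%, those of E0771 wild type 86.7, 93.1 and 90.3%, and E0771 Y238A replicate 2 is at 80.1% beside 92.1 and 94.5%.

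The effect of wild-type MRTFA itself differed between the lines for most of the 38 genes. The effect in E0771 minus that in AT-3 was above 0 past the threshold for 27 genes and below 0 for 2, where 23.3% of all genes tested were above and 24% below, 47.3% in all (5266 above and 3537 below with library totals, 4729 and 3278 with the stricter filter, 4149 and 4285 as reported). The median difference was 0.45, beside -0.08 over all genes tested, a value that library totals raised by 0.13. Bub1b (1.32 ± 0.13), Kif23 (1.29 ± 0.09), Nuf2 (0.96 ± 0.14) and Top2a (0.91 ± 0.09) differed most. In E0771 their estimates were -0.18 ± 0.09, -0.22 ± 0.07, -0.17 ± 0.10 and -0.31 ± 0.06, of which those of Bub1b and Nuf2 did not pass (adjusted p = 0.168 and 0.244). Cenpe (-0.55 ± 0.08) and Kif2c (-0.42 ± 0.08) were the 2 below 0. Nusap1 fell in both lines, and its difference of 0.19 ± 0.12 did not pass (95% interval -0.06 to 0.44, adjusted p = 0.2), though it did with library totals and without AT-3 wild-type replicate 2 or 3. The level of the construct was also higher in AT-3, as given above, and its part in these differences was not tested.

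For Y238A the same difference between the lines was above 0 in 8 of the 38 and below 0 in 3, where 12.2% of all genes tested were above and 13.6% below, 25.8% in all. Cdca8 (0.63 ± 0.06), Birc5 (0.49 ± 0.08) and Smc4 (0.34 ± 0.07) fell further in AT-3 and passed in every one of 20 alternatives. The median difference was 0.07, beside -0.03 over all genes. The count above 0 moved between 4 and 13 when 1 library was left out, with 13 without E0771 Y238A replicate 2, 4 without E0771 empty vector replicate 1, AT-3 Y238A replicate 3 or E0771 Y238A replicate 3, and 5 without AT-3 empty vector replicate 1 or 2 or E0771 Y238A replicate 1. The count below 0 was 5 without E0771 Y238A replicate 3.

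**Figure D4:**
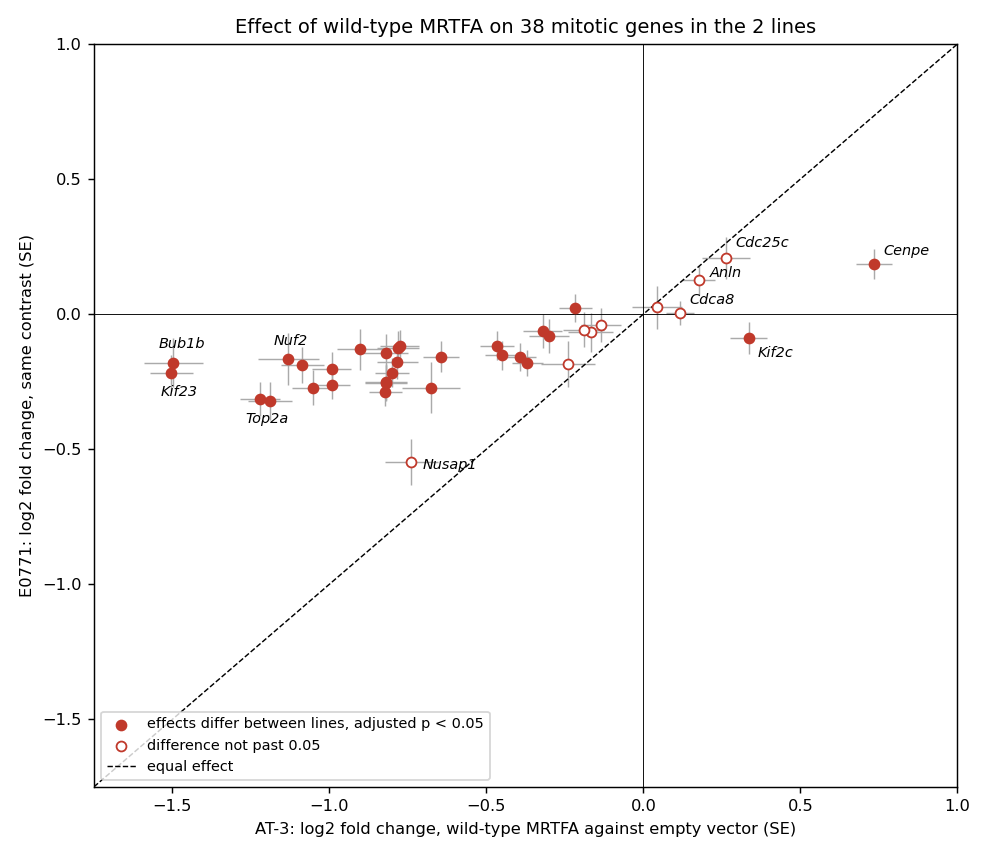
Log2 fold change from empty vector to wild-type MRTFA, AT-3 horizontally and E0771 vertically, for the 38 genes, with SE bars from edgeR (n = 3 libraries per group) and a dashed line of equal effect. Filled points are the 29 genes whose effects differ between the lines at an adjusted p below 0.05; most lie above the line, and Cenpe and Kif2c lie below it at the right.

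With empty vector alone, 15 of the 38 genes were higher in AT-3 than in E0771 and 15 lower, where 36.8% of all genes tested were higher and 35.2% lower, 72% in all, and the median was 0.08, beside 0.01. Mki67 was 1.72 ± 0.10 higher, at 504 ± 41.2 CPM in AT-3 and 153 ± 11.9 in E0771 (SD, n = 3), and Ttk 1.05 ± 0.08 higher. Dlgap5 (-0.89 ± 0.07) and Hmmr (-0.78 ± 0.07) were lowest in AT-3 relative to E0771. Cdca8, Kif2c and Cenpe did not pass (adjusted p = 0.16, 0.229 and 0.065). The summed levels in the 2 lines were 6458 ± 167 and 6287 ± 207 CPM (SD, n = 3).

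Related genes that are not among the 38 were counted in lists. Of 77 other mitotic genes, 59 fell and 10 rose in AT-3 with the wild-type construct (median -0.49), where 32.2% of all genes tested fell and 36.4% rose. Cyclin B2 (Ccnb2, -1.87 ± 0.09) and the spindle pole protein Aspm (-1.51 ± 0.06) fell, and the kinetochore protein Zwint rose by 1.02 ± 0.04. Of 40 S-phase genes 34 fell and 2 rose (median -0.76), and the falls include Uhrf1 (-1.63 ± 0.07) and the polymerase gene Pold1 (-1.19 ± 0.06). Of 17 genes for subunits and regulators of the anaphase-promoting complex, 12 fell and 3 rose (median -0.32), with Fzr1, the coactivator that follows Cdc20, at -1.20 ± 0.05.

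The 22 factors that act on G2/M promoters were split in AT-3 with wild type, 10 lower and 9 higher (median -0.13), where 32.2% of all genes tested fell and 36.4% rose. E2f5, of the repressor class of E2F factors, rose by 1.83 ± 0.09. Of the E2F partners, Tfdp1 fell (-0.96 ± 0.05) and Tfdp2 rose by 0.68 ± 0.04. The activator B-MYB (Mybl2) stood at 112 CPM with empty vector in AT-3, 196 with wild-type and 69.1 with Y238A MRTFA. It fell with Y238A (-0.70 ± 0.05, adjusted p = 9.51e-10) and was higher with wild type than with Y238A by 1.50 ± 0.05 (adjusted p = 1.39e-15). In E0771 it rose by 0.28 ± 0.05 with wild type (adjusted p = 0.000348) and was higher than with Y238A by 0.40 ± 0.05.

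In E0771 with wild type, 29 of the 77 other mitotic genes fell and 2 rose (median -0.16), 29 of the 40 S-phase genes fell (median -0.26), and 4 of the 17 complex genes fell (median -0.11), where 13.3% of all genes tested fell and 11.2% rose. Of the 22 factors 5 fell and 2 rose (median -0.06). Pcna, the replication clamp, fell by 0.35 ± 0.04 and Aspm by 0.33 ± 0.05 on the log2 scale. With Y238A in AT-3, 48 of the 77 other mitotic genes fell and 14 rose (median -0.25), and 27 of the 40 S-phase genes fell and 3 rose (median -0.38), where 22.2% of all genes tested fell and 21.4% rose. Of the 17 complex genes 7 fell and 5 rose (median -0.16), and of the 22 factors 10 fell and 4 rose (median -0.16). With Y238A in E0771, where 6.64% of all genes fell, 18 of the 77 other mitotic genes, 12 of the 40 S-phase genes and 2 of the 17 complex genes fell (medians -0.12, -0.12 and -0.11). Of the 22 factors 0 fell by edgeR, 7 were lower at an unadjusted p below 0.05 and 1 was by DESeq2.

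**Figure D5:**
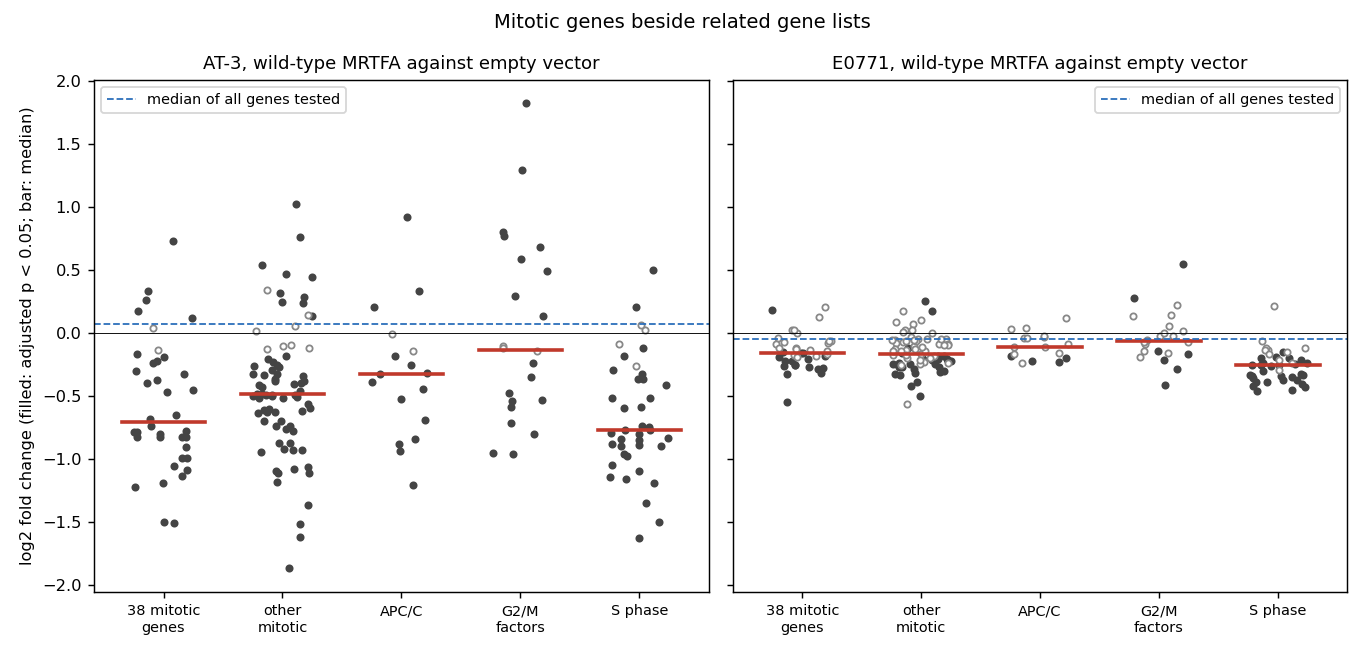
Log2 fold change with wild-type MRTFA against empty vector (vertical axis; points, genes, filled at an adjusted p below 0.05; red bars, list medians; dashed line, median of all 17841 genes tested) for the 38 genes and 4 related lists, AT-3 on the left and E0771 on the right. In AT-3 the medians are -0.71 for the 38, -0.49 for other mitotic genes, -0.32 for the anaphase-promoting complex (APC/C), -0.13 for the G2/M factors and -0.76 for S-phase genes.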

How the data were processed

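Counts per gene were deposited by the authors without normalization; per the submitters' processing notes, reads were aligned with STAR to GRCm38 and counted with featureCounts, whose versions, annotation release, strand and read-pair settings are not given in the sources used here. Of 32286 entries 32158 were given a symbol by identifier, and positions and exon lengths came from GENCODE M21. In each library 82.1 to 85.5% of entries with 1 or 2 counts held 2, so counts may not be independent molecules. Genes were filtered by a minimum count of 10 in enough libraries, scaled by TMM and tested in 1 model of 6 group means over 18 libraries with edgeR 4.0.16 (R 4.3.3), a robust quasi-likelihood F test on 12 residual degrees of freedom before shrinkage, with Benjamini-Hochberg adjustment over 17841 genes at 0.05. The script was tested on simulated data in which few genes changed, with rises and falls balanced, so scaling under broad change was not tested. Deviations of same-numbered libraries from their group means correlated at 0.173 to 0.394 in the 3 pairs of E0771 empty vector and wild type. These numbers were taken as pairs, in the replicate block, on the data alone, since the labels name no shared culture or day. The main counts of that comparison, 17 lower and 1 higher, come from group means without pairs. Differently numbered E0771 libraries correlated at -0.264 to 0.279. Y238A replicate 1, for example, stood at 0.279 with empty vector replicate 2 and at 0.256 with wild-type replicate 2. Among E0771 libraries these held most transcripts specific to AT-3, and the part of those transcripts in the correlations was not tested. The number alone therefore does not describe which libraries deviated together. SE is the absolute log2 fold change divided by the square root of F. CPM in every library are given for the leading member of each role by level, the 3 highest and 3 lowest past the threshold in each comparison with empty vector, and those against the main direction. The members, lists and rules were chosen with earlier results of these data known. Alternatives were DESeq2 1.42.0, its size factors, library totals, no filter, a stricter filter (a mean of 50 counts, with 1 CPM in at least 3 libraries), each line alone, a replicate block, a log2 limit of 1 and left-out libraries; the log2 limit is not among the alternatives counted as 15 or, for differences between lines, 20.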

Additional observations from a re-analysis of the deposited data

Results flagged for a closer look

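For 29 of the 38 genes the effect of wild-type MRTFA differed between the lines by the test of the difference itself in edgeR, where 47.3% of all 17841 genes tested did. Values are the E0771 log2 fold change minus that in AT-3. The largest were Bub1b (1.32), Kif23 (1.29), Nuf2 (0.965), Top2a (0.906), Hmmr (0.898), Ncapd2 (0.868), Cenpa (0.791), Prc1 (0.782) and Ttk (0.771). Next came Cenpf (0.729), Plk1 (0.677), Ckap2 (0.657), Dlgap5 (0.655), Ect2 (0.608), Cdc20 (0.583), Kif11 (0.571), Kif20a (0.565) and Aurkb (0.535). The smallest above 0 were Birc5 (0.488), Mki67 (0.406), Bub3 (0.349), Smc4 (0.297), Tacc3 (0.259), Tpx2 (0.239), Cdk1 (0.237), Aurka (0.22) and Mad2l1 (0.188). Below 0 were Cenpe (-0.548) and Kif2c (-0.422). Those of Aurka, Mad2l1, Mki67 and Tacc3 were lost when 1 of several single libraries was left out, and the other 25 passed in all 20 alternatives.

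The effect of Y238A differed between the lines for 11 of the 38 genes, where 25.8% of all genes tested did, so that the count lies near the background. Above 0 were Cdca8 (0.625), Birc5 (0.487), Bub1b (0.45), Smc4 (0.335), Kif11 (0.321), Kif23 (0.283), Kif2c (0.248) and Mad2l1 (0.205). Below 0 were Cenpf (-0.293), Anln (-0.248) and Cdc20 (-0.236). Cdca8, Birc5 and Smc4 passed in all 20 alternatives. The level of the construct also differed between the lines, and its part was not tested.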

How the results depend on the processing

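Over the 38 genes and 9 comparisons, the direction of a call turned only for Cdca8 with wild-type MRTFA in AT-3 (0.12 as reported, -0.0357 with library totals, -0.0363 and -0.0056 without wild-type replicates 2 and 3, and -0.0363 to 0.1497 over the left-out libraries); the uncalled Smc4 difference between constructs in AT-3 turned to -0.13 with library totals and was as low as -0.0834 with a library left out. The median for wild-type against Y238A in E0771 turned to -0.0395 with library totals, -0.0583 without the 2 libraries that stood apart (an alternative chosen after seeing the data), -0.0137 without E0771 wild-type replicate 2 and -0.0591 without Y238A replicate 2, with 0.0744 as the highest over left-out libraries. The median of the Y238A line difference turned to -0.0045 without E0771 Y238A replicate 3 and that of AT-3 against E0771 to -0.0031 with library totals. When a call also needed a log2 change of 1 or more either way, 0 members were higher and 7 lower with wild type in AT-3, 0 and 0 with Y238A in AT-3, 1 and 4 between them, 2 and 0 in the wild-type line difference and in AT-3 against E0771, and 0 and 0 elsewhere. Library totals left 2 higher with wild type in AT-3. DESeq2 gave 9 higher and its size factors 8 for the AT-3 constructs compared, and each gave 3 higher with wild type in E0771. The stricter filter gave 3 higher and 10 lower there and 13 above 0 in the Y238A line difference, E0771 alone gave 3 and 9, and the replicate block gave 2 higher. Apart from E0771 empty vector and wild type, deviations of same-numbered libraries correlated at -0.0132 to 0.0620 in AT-3 and -0.180 to 0.194 in E0771, and these numbers were not taken as pairs; there the replicate block moved no count by over 1.5 times (30 lower with wild type in AT-3), and with it the calls of Bub1 with wild type in AT-3, Ube2c between the AT-3 constructs, Anln, Ckap2 and Kif4 with Y238A in E0771, Aurka and Kif23 in the line differences with wild type and Y238A, and Ndc80 in AT-3 against E0771 were lost. The 4 libraries named above were AT-3 Y238A 1 and E0771 empty vector 2, wild type 2 and Y238A 1. Without them, counts were 0 higher and 8 lower with wild type in E0771, 5 lower with Y238A there and 4 higher between these constructs. In the Y238A line difference they were 4 above and 0 below. Without the 2 libraries that stood apart, 3 were higher with Y238A in AT-3, 8 higher between the AT-3 constructs, 3 higher with wild type in E0771 and 16 above in the Y238A line difference. Leaving out 1 library at a time gave 2 to 5 higher and 29 to 32 lower with wild type in AT-3, 0 to 2 higher and 8 to 16 lower in E0771, 5 to 22 lower with Y238A there, 5 to 9 higher and 3 to 5 lower between them, and 4 to 13 above and 2 to 5 below in the Y238A line difference. The cause of these moves was not tested. Depth limits little here, as every member was tested under each setting, whereas 3 libraries per group and their unknown independence limit each p-value.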
